A study of Arabidopsis thaliana with 28 samples.

Results

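The miR165 and miR166 guide strands of Arabidopsis thaliana were examined across an abscisic acid (ABA) time course. They were taken from the deposited table by name, as every miR165 or miR166 entry that is a 3p arm or carries no arm in its name, and there were 9 of these among 421 mature miRNAs. The entries are ath-miR165a-3p and ath-miR165b, and ath-miR166a-3p, ath-miR166b-3p, ath-miR166c, ath-miR166d, ath-miR166e-3p, ath-miR166f and ath-miR166g, written without the species prefix where sequences are compared or values repeated. The samples were whole seedlings of wild-type ecotype Col-0, incubated with the stress hormone ABA or mock-treated (EtOH in the labels) and collected after 0.5, 1, 3, 6, 9, 12 and 24 h. Each of the 14 groups had 2 small RNA libraries, 28 in all. The ABA concentration and the age of the seedlings were not stated. The labels do not state that the libraries of a group were grown apart. Most p-values below rest on the spread of ABA minus mock differences between times, and those from recovered libraries rest on a spread between libraries that may be technical. In whole seedlings, fewer cells making a miRNA and less of it per cell cannot be told apart.

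Plant miRNAs are cut from hairpin precursors as a duplex, from which the guide strand is loaded into an ARGONAUTE protein and the passenger strand is usually lost. miR165 and miR166 direct cleavage of the mRNAs of the class III homeodomain leucine zipper (HD-ZIP III) transcription factors, which specify the upper side of leaves, pattern the vascular tissue and maintain the shoot meristem. ARGONAUTE10 binds these guides with preference and keeps them from their targets in the meristem.

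The mature sequences are shown because they set what the entries can tell apart. All miR166 entries share 1 sequence of 21 bases, both miR165 entries share another, and the pair differ by the substitution U17C (miR166 base first, position counted from the 5′ end), shown in capitals.
miR166: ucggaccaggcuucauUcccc
miR165: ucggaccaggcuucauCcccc
The seed (bases 2 to 8) lies outside the difference, so all 9 entries have 1 seed, shown in capitals in the form of miR166a-3p.
miR166a-3p: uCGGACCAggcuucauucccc
Of the 421 deposited names 413 matched a RefSeq mature miRNA on TAIR10.1, with 335 distinct sequences. Among these, 0 entries outside the 9 had the same seed and 0 came within 4 differences of either guide. Reads of a full-length guide therefore cannot be assigned to 1 of the 2 miR165 loci or of the 7 miR166 loci, and the 9 entries hold 2 measurements rather than 9.

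The hairpins of MIR165a and MIR166a illustrate the arms, with the 5p passenger and then the 3p guide in capitals. MIR165a lies at chr1:78927-79037 on the minus strand of TAIR10.1, where a non-coding RNA gene (AT1G08765) is annotated on the opposite strand. MIR166a lies at chr2:19176108-19176277 on the plus strand and overlaps no other annotated gene.
MIR165a: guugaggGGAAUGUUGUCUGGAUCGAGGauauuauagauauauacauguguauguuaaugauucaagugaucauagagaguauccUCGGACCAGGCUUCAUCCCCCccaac
MIR166a: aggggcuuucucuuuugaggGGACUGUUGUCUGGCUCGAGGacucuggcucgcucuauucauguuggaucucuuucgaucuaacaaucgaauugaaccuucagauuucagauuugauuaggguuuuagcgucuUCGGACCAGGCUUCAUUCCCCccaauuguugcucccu
The other loci lie between annotated genes, with MIR165b at chr4:369831-370012, MIR166b at chr3:22922206-22922325, and MIR166e, MIR166f and MIR166g at chr5:16775520-16775662, chr5:17516301-17516405 and chr5:25504798-25504919. MIR166c (chr5:2838635-2838773) and MIR166d (chr5:2840622-2840734) are neighbours.

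The sites in the 5 HD-ZIP III mRNAs show where the single base difference falls. PHABULOSA (PHB), PHAVOLUTA (PHV), REVOLUTA (REV), ATHB-15 and HB-8 each carry a site of 21 bases in the coding sequence, split by an intron after base 11. The capital marks the base opposite guide position 17.
PHB (chr2:14642530-14642666, minus): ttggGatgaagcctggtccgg
PHV (chr1:10799330-10799445, minus): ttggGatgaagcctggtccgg
REV (chr5:24398787-24398898, plus): ctggGatgaagcctggtccgg
HB-8 (chr4:15866872-15866974, minus): ctggGatgaagcctggtccgg
ATHB-15 (chr1:19412976-19413085, minus): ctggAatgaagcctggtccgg
In 4 of the 5 sites that base is G, which pairs with the C of miR165 and forms a G-U wobble with the U of miR166. In ATHB-15 it is A, which pairs with miR166 and is unpaired with miR165. Each site leaves 2 bases unpaired against miR166, with 2 wobbles (1 in ATHB-15). Against miR165 there are 2 unpaired bases and 1 wobble, or 3 unpaired and 1 wobble in ATHB-15. The spliced mRNAs of 31460 genes were searched for stretches with at most 4 positions outside Watson-Crick pairing. This limit was the largest number found in the 5 sites above. The search found 11 genes for miR166 (0.035%) and 7 for miR165 (0.0223%). Both sets were bound to hold all 5 HD-ZIP III genes, because these genes set the limit. A match describes the sequence only, and target mRNAs were not analysed here.

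The guides were among the more abundant entries in every group. Levels are the authors' normalised read counts, given as the mean of the 2 libraries of a group. Each miR166 entry held 1.15 to 2.68% of its group's column total and ranked 8 to 20 of 421, and each miR165 entry held 0.341 to 0.738% and ranked 23 to 36. The column totals ran from 4305799.9 to 7644818 and count a read once for every entry it was assigned to, so these shares are of listed values and not of reads. Entries of the same sequence were nearly equal. The 6 entries from miR166b-3p to miR166g lay within 0.159 to 0.233% of each other in a group. miR166a-3p was the exception among the miR166 entries, at 4.46 to 5.12% above miR166f with ABA and 4.37 to 5.95% above it in mock. miR165a-3p exceeded miR165b by 0.695 to 0.886% with ABA and by 0.646 to 1.12% in mock. Because of this likeness, miR165a-3p stands for its sequence in what follows. miR166a-3p stands for the miR166 sequence, although it is the entry least like the others.

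The level of miR165 with ABA did not keep to 1 side of mock. The authors scaled each time separately, so the values below are for comparing ABA with mock within a time. In ABA seedlings miR165a-3p had mean normalised counts of 36800.1 at 0.5 h, 44735 at 1 h, 41070.4 at 3 h, 19462 at 6 h, 30386 at 9 h, 34149 at 12 h and 27586 at 24 h. In mock seedlings it had 32369 at 0.5 h, 35866 at 1 h, 30358 at 3 h, 24219 at 6 h, 26072 at 9 h, 35839.8 at 12 h and 36341 at 24 h. The ABA mean was the higher one at 0.5, 1, 3 and 9 h and the lower one at 6, 12 and 24 h. The sides at 3 and 9 h depend on scaling. As a share of the column total miR165a-3p was lower with ABA at 3 h (0.618 against 0.634% in mock) and at 9 h (0.530 against 0.543%). At the other times the share lay on the same side as the mean. On the log2 scale the ABA minus mock difference was 0.19, 0.32, 0.44, -0.32, 0.22, -0.07 and -0.40 at the 7 times in order, so the extremes were a ratio of 1.35 at 3 h and of 0.759 at 24 h.

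miR166 did not keep to 1 side of mock either. In ABA seedlings miR166a-3p had mean normalised counts of 110761 at 0.5 h, 134559 at 1 h, 135449 at 3 h, 68306 at 6 h, 96049 at 9 h, 114612 at 12 h and 101192 at 24 h. In mock seedlings it had 112006 at 0.5 h, 130318 at 1 h, 109154 at 3 h, 88185 at 6 h, 93893 at 9 h, 126808 at 12 h and 132242 at 24 h. The ABA and mock means were close at 0.5, 1 and 9 h, ABA was higher at 3 h, and ABA was lower at 6, 12 and 24 h. The log2 differences in the same order were -0.02, 0.05, 0.31, -0.37, 0.03, -0.15 and -0.39. The sign at 0.5 h depends on scaling, since centring on the median of all miRNAs gives 0.0022. It also depends on the entry, as those from miR166b-3p to miR166g had 0.0026 to 0.0033 at 0.5 h. As a share of the column total miR166a-3p was lower with ABA also at 1 h (1.76 against 1.87% in mock), 3 h (2.04 against 2.28%) and 9 h (1.67 against 1.96%). At 0.5 h its share was higher with ABA (1.95 against 1.88%).

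**Figure D1:**
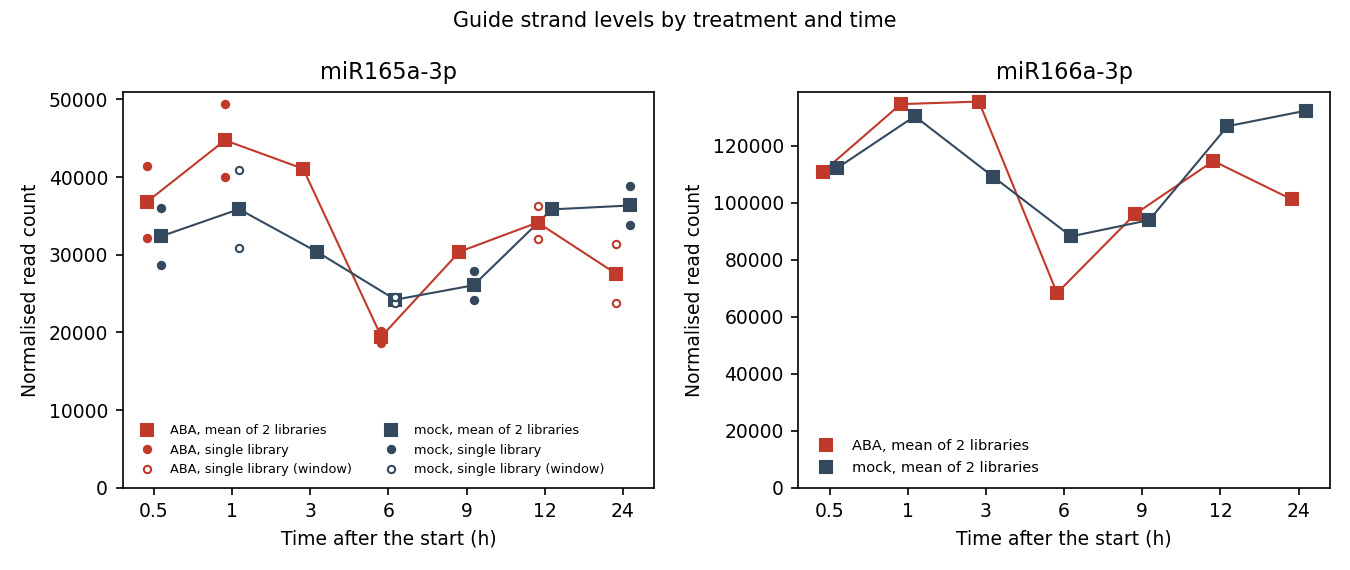
Mean normalised read count of miR165a-3p (left) and miR166a-3p (right) against time in hours, with equal spacing between times. Squares are group means with ABA (red) and mock (dark). Small circles for miR165a-3p are the 2 library values where a joint fit with miR165b recovered them. Open circles also needed a limit on the ratio of the 2 libraries. Both guides are lower with ABA than in mock at 6 and 24 h and higher with ABA at 3 h.

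Whether ABA changed the guides over the whole course was tested with limma on the 7 ABA minus mock differences, and no guide entry passed. miR165a-3p had a mean log2 difference of 0.05 (SE 0.13, n = 7 times; limma, Benjamini-Hochberg adjusted p = 0.777). miR166a-3p had -0.08 (SE 0.11, n = 7 times; limma, Benjamini-Hochberg adjusted p = 0.652). The other miR166 entries lay at -0.07, and 0 of the 9 entries were called, against 26% of the 407 miRNAs tested (49 raised and 57 lowered). Against the spread between recovered libraries, where limma called 46.6% of 393 miRNAs (23.2% raised and 23.4% lowered), 0 of the 9 entries were called as well. The exact sign-flip permutation test gave p = 0.641 for miR165a-3p and p = 0.406 for miR166a-3p. Both means rest on differences of opposite sign: without 3 h the miR165a-3p mean is -0.0097, and under quantile normalization the miR166a-3p mean is 0.028.

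Single times gave no call either. In the authors' deposited table the adjusted p of miR165a-3p lay between 0.399 (24 h) and 0.91 (3 h), and that of miR166a-3p between 0.379 (24 h) and 1. None of the 9 entries passed 0.05 at any time there, while the authors' deposited table called 11.2% of miRNAs at 0.5 h, 4.65% at 1 h, 0.246% at 3 h, 3.87% at 6 h, 5.39% at 9 h, 24% at 12 h and 15.3% at 24 h.

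The values of single libraries show how wide the spread behind those means was. A deposited mean could be split into its 2 library values where 1 pair of whole counts fitted it. Guide entries of the same sequence were fitted together, on the assumption that they differ in the same direction in both libraries. For miR165 this left 1 pair in 7 of the 14 groups. Alone, miR165a-3p had 2 fitting pairs at 0.5 and 24 h in mock and at 1 and 9 h with ABA. In 4 more groups 1 pair was left once the ratio of the 2 libraries was limited to a range (the window). That range was the one seen for miRNAs with 1 fitting pair and more than 200 counts over both libraries. The window excludes wider ratios by construction. For miR166 the joint fit left 1 pair in 1 group, where miR166f alone had 3, and in 2 more with the window. The miR165a-3p counts recovered this way ran from 13678 to 53833 reads a library.

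At 0.5 h the ABA libraries had 41379.7 and 32221 normalised counts of miR165a-3p and the mock libraries 28739 and 35999. At 1 h, with the window for mock, the ABA libraries had 49413 and 40057 and the mock libraries 40853 and 30879. At both times the groups overlapped. At 9 h the ABA libraries had 30471 and 30302 and the mock libraries 27923 and 24221, without overlap and with ABA higher. At 6 h the ABA libraries had 20229 and 18695 and the mock libraries, with the window, 23814 and 24623. At 24 h the ABA libraries, with the window, had 31351 and 23821 and the mock libraries 33832 and 38849.6. The groups did not overlap at these 2 times, with ABA lower.

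With 2 libraries a group such a separation is common. Library values of ABA and mock did not overlap for 48.8% of miRNAs at 6 h, 50.6% at 9 h and 63.6% at 24 h. Only values recovered without the window entered these shares. In limma fits on the recovered libraries the miR165a-3p log2 difference was 0.18 at 0.5 h (SE 0.20, Benjamini-Hochberg adjusted p = 0.659) and 0.22 at 9 h (SE 0.20, Benjamini-Hochberg adjusted p = 0.483). These fits called 7.73% of miRNAs at 0.5 h and 14.1% at 9 h. With the window the limma Benjamini-Hochberg adjusted p of miR165a-3p was 0.490 at 1 h, 0.409 at 6 h and 0.188 at 24 h, where 8.97%, 8.71% and 21.3% of miRNAs were called in that order of times. The pooled SD between libraries of a group was 0.174 on the log2 scale for miR165a-3p without the window and 0.188 with it. The median over 402 miRNAs without the window was 0.333, but it includes miRNAs of low count and is not a comparison at like abundance.

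The guides stood lower against mock at the late times than at the early ones, by an amount that did not pass the test. The mean ABA minus mock difference at 6 to 24 h minus that at 0.5 to 3 h was -0.45 for miR165a-3p (SE 0.20; limma, Benjamini-Hochberg adjusted p = 0.203) and -0.33 for miR166a-3p (SE 0.19; limma, Benjamini-Hochberg adjusted p = 0.309). limma called 0 of 407 miRNAs (0%) in this contrast, with 104 at an unadjusted p under 0.05. Against the spread between recovered libraries in place of the spread between times, limma called 67 of 393 miRNAs (17%). There miR165a-3p had SE 0.15 and a Benjamini-Hochberg adjusted p of 0.0517, and miR166a-3p, with 1 residual degree of freedom of its own, had 0.206. The miR165a-3p value moved to -0.13 under quantile normalization and to -0.24 when late times began at 9 h.

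**Figure D2:**
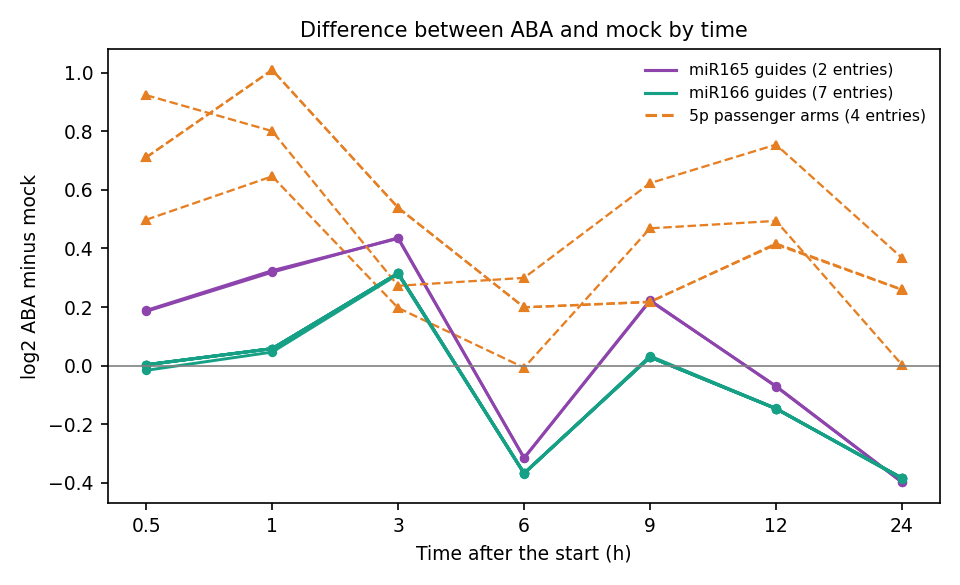
Log2 ABA minus mock difference of the deposited group means against time in hours, with equal spacing between times, for the 2 miR165 guide entries, the 7 miR166 guide entries and the 4 listed 5p passenger arms of these families. Lines of the same sequence lie on each other. The guides lie between -0.40 and 0.44 on both sides of 0, and the passenger arms lie mostly above 0.

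Levels were also set across times after scaling all 14 columns together by the median of ratios. On that scale miR165a-3p was lowest at 6 h with ABA (22456) and highest at 3 h (40379.7), a ratio of 1.80. In mock it was lowest at 9 h (26511) and highest at 24 h (39660.3), a ratio of 1.50. miR166a-3p had the same lowest and highest times, with ratios of 1.69 with ABA and 1.51 in mock. The course shared by both treatments did not pass: the limma F test of time gave a Benjamini-Hochberg adjusted p of 0.733 for miR165a-3p and of 0.686 for miR166a-3p, and called 0 of 407 miRNAs (0%), with 46 at an unadjusted p under 0.05.

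The balance between the 2 guides was steady in mock and shifted towards miR165 with ABA. In ABA seedlings miR165a-3p stood at 33.2, 33.2, 30.3, 28.5, 31.6, 29.8 and 27.3% of miR166a-3p at the 7 times in order. In mock seedlings it stood at 28.9, 27.5, 27.8, 27.5, 27.8, 28.3 and 27.5%. The mock values span a narrow band, and the ABA value was above the mock value at every time but 24 h. The mean was 30.6% ± 2.28 with ABA and 27.9% ± 0.527 in mock (SD, n = 7 times each). The log2 ratio of miR165 to miR166 was higher with ABA by 0.13 (SE 0.04), at 6 of 7 times, with an exact two-sided sign-flip permutation p of 0.0313 where 0.0156 is the smallest these times allow. The exact permutation p became 0.0625 when any 1 time other than 24 h was left out. The mean shift was 0.20 at the 3 early times and 0.08 at the 4 late times, a difference that was not tested. Both entries come from 1 column, so the ratio does not depend on how columns were scaled. The sequences differ by 1 base, and how the authors' mapping treated reads with a mismatch was not stated, so the part of such reads in the ratio was not tested.

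**Figure D3:**
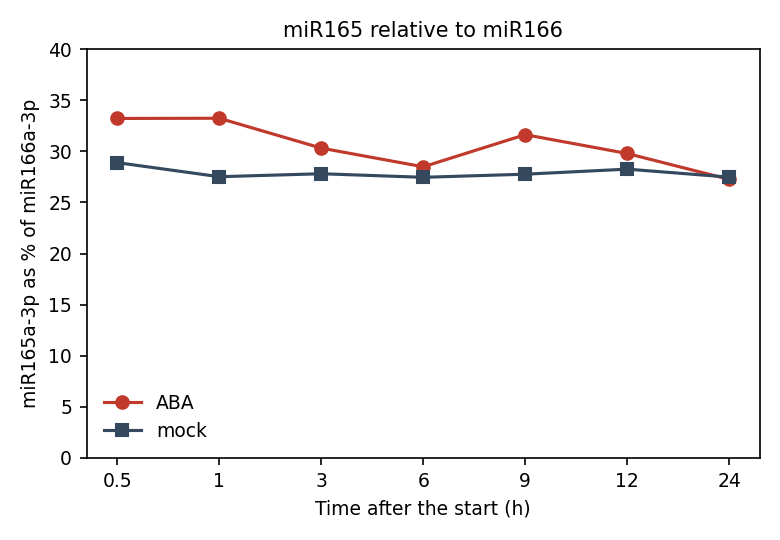
Deposited level of miR165a-3p as a percentage of miR166a-3p in the same group, against time in hours with equal spacing between times, with ABA (red circles) and mock (dark squares). The mock values stay between 27.5 and 28.9%, and the ABA values start at 33.2% and reach 27.3% at 24 h.

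The passenger arms moved apart from the guides. The table lists 5p arms for MIR165a, MIR166a, MIR166b and MIR166e, and those of MIR166a and MIR166b are identical, so they hold 3 measurements. Their sequences are shown with the seed in capitals, since, unlike the guides, they tell MIR165a and MIR166e apart from the other listed loci.
miR165a-5p: gGAAUGUUgucuggaucgagg
miR166a-5p and miR166b-5p: gGACUGUUgucuggcucgagg
miR166e-5p: gGAAUGUUgucuggcacgagg
Over the 7 times miR166e-5p rose by 0.58 on the log2 scale (SE 0.12; limma, Benjamini-Hochberg adjusted p = 0.0105). miR166a-5p and miR166b-5p rose by 0.48 each (SE 0.13, Benjamini-Hochberg adjusted p = 0.023), while miR165a-5p at 0.33 missed the threshold (SE 0.12, Benjamini-Hochberg adjusted p = 0.0636). The raised share among all tested miRNAs was 12%. At some times the side of the passenger arms depends on scaling too. As a share of the column total miR166a-5p was lower with ABA at 6 h (0.0330 against 0.0378% in mock), 9 h (0.0315 against 0.0324%) and 24 h (0.0440 against 0.0446%). The share of miR166b-5p was lower at the same times, miR165a-5p at 3, 6 and 24 h, and miR166e-5p at 3 and 6 h. At the other times the shares were higher with ABA. Against the spread between recovered libraries, where limma raised 23.2% of 393 miRNAs, all 4 arms were raised, miR165a-5p with a Benjamini-Hochberg adjusted p of 0.000312.

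All 4 passenger entries could be split into libraries in every group. Both ABA libraries lay above both mock libraries at 4 of 7 times for miR165a-5p, at 5 for miR166a-5p and at 6 for miR166e-5p. In either direction the libraries did not overlap for 56.7% of miRNAs at 0.5 h, 47.4% at 1 h, 46.8% at 3 h and 60.6% at 12 h, beside the shares for 6, 9 and 24 h given above. At 1 h miR166a-5p had 3338 and 4383 normalised counts in the ABA libraries and 2170.4 and 1666 in the mock libraries, the widest separation for that arm (log2 difference 1.01). At 6 h its ABA libraries had 1576 and 2162 and its mock libraries 1499.6 and 1757, and the groups overlapped.

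Set against its passenger, each guide was lower with ABA. The ratio combines the guide and passenger differences given above, so its tests are not independent of them. For MIR166a the mean log2 difference was -0.08 for the guide and 0.48 for the passenger. For MIR165a it was 0.05 for the guide and 0.33 for the passenger. For MIR166a the guide level per passenger level was 42.2, 34.9, 50.8, 36.5, 53.1, 46.1 and 38.5 with ABA at the 7 times in order. In mock it was 69.8, 67.9, 59.4, 54.2, 60.4, 67.9 and 60.2. Every ABA value lay below every mock value. Guide to passenger ratios of other hairpins were not computed, so how common such a separation or shift is was not tested. The log2 difference averaged -0.55 (SE 0.10), below 0 at 7 of 7 times, with an exact sign-flip permutation p of 0.0156 (Benjamini-Hochberg adjusted over the 4 loci, 0.0313). MIR166b gave -0.55 with the same exact permutation p, as its arms are the sequences of MIR166a.

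For MIR166e the median guide level per passenger level was 48.7 with ABA (45.3 to 67.9) and 82.0 in mock (66.0 to 127). The log2 difference averaged -0.65 (SE 0.12), below 0 at 6 of 7 times, with an exact sign-flip permutation p of 0.0313 (adjusted 0.0313). For MIR165a the median was 8.48 with ABA (6.77 to 11.5) and 10.1 in mock (8.94 to 14.4). Its log2 difference averaged -0.27 (SE 0.09), below 0 at 6 of 7 times, with an exact sign-flip permutation p of 0.0313 (adjusted 0.0313). At each of the 4 loci the adjusted exact permutation p became 0.0625 when any 1 time other than 3 h was left out. The exception at MIR166e and MIR165a was 3 h, at 0.04 for MIR166e and 0.24 for MIR165a. The guide part of each ratio holds reads that may come from any locus of the same sequence, so the ratio is not the yield of 1 hairpin.

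**Figure D4:**
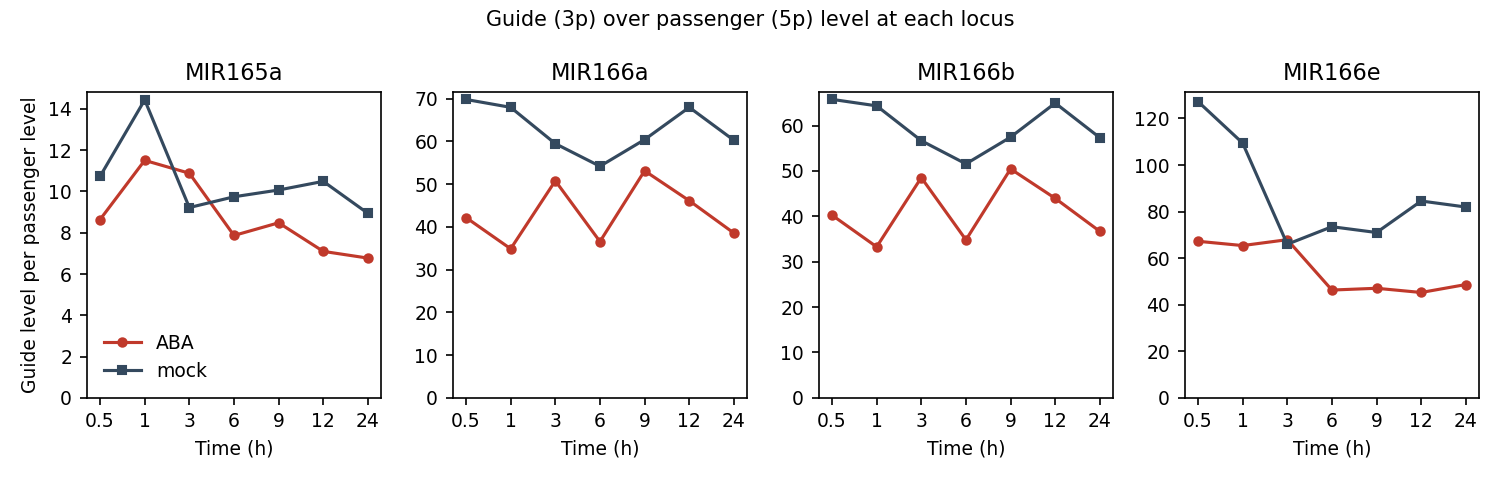
Guide (3p) level divided by passenger (5p) level at MIR165a, MIR166a, MIR166b and MIR166e against time in hours with equal spacing between times, with ABA (red circles) and mock (dark squares); each panel has its own vertical axis from 0. ABA lies below mock at all 7 times for MIR166a and MIR166b and at 6 of 7 for MIR165a and MIR166e, the exception being 3 h.

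Other miRNA families that act in leaves and meristems gave no common direction. The list held miR160 and miR164, which target auxin response factors and NAC boundary genes, miR319 and miR396, which target TCP and growth-regulating factors, miR390, which triggers trans-acting siRNAs from TAS3, and miR394. Of its 24 entries 1 was raised (12% among all tested) and 2 were lowered (14%), with a median log2 difference of 0.00045 against -0.02 over all tested miRNAs. Some of these entries share a sequence, such as miR160a-5p, miR160b and miR160c-5p, so they hold fewer than 24 measurements. The lowered entries were miR160a-3p at -0.74 (SE 0.14; limma, Benjamini-Hochberg adjusted p = 0.00797) and miR390a-3p at -0.67 (SE 0.20; limma, Benjamini-Hochberg adjusted p = 0.0356). The raised entry was miR160c-3p at 0.42 (SE 0.13; limma, Benjamini-Hochberg adjusted p = 0.0382). All 3 are arms opposite the usual guide of their hairpin. The next in each direction missed the threshold, with miR390a-5p (same sequence as miR390b-5p) at -0.63, miR396a-5p at 0.30 and miR390b-3p at 0.28.

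Across the 14 jointly scaled group values miR165a-3p and miR166a-3p had a Pearson r of 0.89 on the log2 scale. Among entries of other sequence with a mean of at least 10, the courses most like miR166a-3p were those of miR5024-5p (r = 0.71), miR841b-5p (0.71), miR5645c (0.69), miR5630a (0.68) and miR5659 (0.67). Those most like miR165a-3p were miR399c-5p (0.82), miR841b-5p (0.80), miR5645c (0.70), miR5659 (0.69) and miR841a-5p (0.62). These entries had mean normalised counts of 10.4 to 199, far below the guides, and the values share libraries and scaling, so the likeness is a description.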

How the data were processed

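The submitters' processing notes name FastQC, STAR and TAIR10. Their versions, the counter, the treatment of multiply mapped reads and the normalization were not stated. The deposited signal of each group is a normalised read count: the values have the form of the mean of 2 counts, each divided by a size factor (0.687 to 1.36), and each time was scaled separately. The authors' adjusted p-value for each time was used as deposited. Where 1 pair of whole counts fitted a mean it was split into library values (5322 of 5894 values, 90.3%), which carry no replicate number. Guide entries of the same sequence were also fitted together, as described above. The window used miRNAs with 1 fitting pair and more than 200 counts over both libraries. Single libraries had been allowed for in the planned design, and the fit on group values was used.

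limma 3.58.1 in R 4.3.3 (eBayes with trend, two-sided, Benjamini-Hochberg over all tested, threshold 0.05) was fitted to log2(value + 1) differences of 407 miRNAs that reached 1 in at least 2 groups, and checked on simulated data. Ratios were tested by exact sign-flip permutation over times. Sequences were read by name from the RefSeq TAIR10.1 genome and annotation; no coordinates were taken from the deposited table. The text names all 9 guides, the 4 passenger arms, the 3 largest and 3 smallest differences of the leaf and meristem list, and the 5 miRNAs most correlated with each guide. The members and lists were chosen with earlier results of these data known. Alternatives covered pseudocounts, filters, scaling, moderation, entries per sequence, and each time or library left out. The window, and the late minus early fit against library spread, were added after seeing the data.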

Additional observations from a re-analysis of the deposited data

Results flagged for a closer look

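miR165a-3p is given again because both ABA libraries lay on the same side of both mock libraries at 3 times, and the side changed. Its log2 ABA minus mock difference was -0.32 at 6 h (both ABA libraries lower), 0.22 at 9 h (both higher) and -0.40 at 24 h (both lower). The difference between these times was not tested. At 0.5 and 1 h the groups overlapped, and at 3 h and, in mock, at 12 h the libraries were not recovered. Separation of 2 against 2 libraries is frequent here (48.8% of miRNAs at 6 h, 50.6% at 9 h and 63.6% at 24 h). These shares used only library values recovered without the window. The values at 6 and 24 h rest on the window in 1 of the 2 groups. Those at 9 h with ABA and 24 h in mock rest on the joint fit with miR165b. The side at 9 h also depends on scaling, since the share of the column total was 0.530% with ABA and 0.543% in mock.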

How the results depend on the processing

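Of 876 alternative values for 49 results, 836 kept their direction and side of the threshold. These are not 876 independent checks, because entries of the same sequence were counted separately. In the fits of group means against library spread, leaving out 1 library changed only the spread, so the direction could not change. Quantile normalization turned the mean of miR166a-3p to 0.028, leaving out 3 h turned those of miR165a-3p to -0.0097 and of miR165b to -0.0081, and median centring turned miR166a-3p at 0.5 h to 0.0022; none of these had passed the test, and the cause was not tested. Leaving out 1 time, the mean of miR165a-3p ranged from -0.0097 to 0.13, and the miR165 to miR166 shift from 0.11 to 0.15. The guide to passenger difference ranged from -0.36 to -0.23 at MIR165a, -0.61 to -0.49 at MIR166a, -0.61 to -0.48 at MIR166b and -0.76 to -0.60 at MIR166e. With 6 times the smallest exact permutation p is 0.0313, and it became 0.0625 on leaving out any time but 24 h for the miR165 to miR166 shift and, adjusted over loci, any time but 3 h for the 4 loci. With 1 time left out, the late minus early value of miR165a-3p (-0.45) lay between -0.57 and -0.37; it was -0.13 under quantile normalization and -0.24 with late times from 9 h. With 1 library left out, its limma adjusted p against library spread lay between 0.0471 and 0.0647. It was under 0.05 only without mock 3 h library a or b, where no miR165 library value was recovered, so that change came through the other miRNAs and is no test of miR165a-3p. No paired analysis was possible because the columns are group means and the recovered libraries carry no replicate numbers. The 3 h groups and mock at 12 h had no recovered miR165 libraries. miR166 libraries were recovered in 1 group without the window, so its spread rests on 1 residual degree of freedom.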
